A study of Mus musculus with 10 samples.

Results

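The peaks described here are all ATAC-seq peaks on chromosomes 1 to 19 in the deposited peak lists of naive B and plasma cells of the mouse, in mm9 coordinates. They were taken by chromosome name alone, with no score or width threshold, and number 28614 of the 29868 peaks in the naive B list and 29405 of the 30475 in the plasma list, or 58019 of 60343 together. The study set naive B cells against plasma cells with ATAC-seq, RNA-seq, ChIP-seq for histone marks, and TCC, which ligates tethered chromatin to find contacts across the genome, and 6 of its 10 samples are used here. Both ATAC libraries came from wild-type C57BL/6 mice and from 50000 cells each. The naive B cells were sorted from spleen as CD23+IgD+ cells. The plasma cells were sorted from bone marrow as CD138+ cells that lacked B220, IgD, CD4, CD8, Gr1 and Ter119. No treatment is named for either. RNA-seq used C57BL/6 wild-type mice and the same naive B sort, but the labels of the plasma RNA library name both activation in culture and a bone marrow sort. For TCC, naive B cells were CD23+ cells purified with magnetic beads from wild-type spleen. The labels of the plasma TCC library name Blimp-GFP mice and conflict as well, with ex vivo sorted cells in one field and, in the protocol, CD23+ cells cultured for 3 days with LPS and sorted for GFP. It is therefore not known whether the plasma RNA and TCC libraries match the ATAC cells. Each cell type has 1 peak list, so no difference below has a replicate check and none was tested: intervals are exact 95% intervals for counting error only, neighbouring peaks are not independent, and the sequencing depth behind each list is not known.

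ATAC-seq uses the transposase Tn5, which inserts sequencing adapters where DNA is not covered by nucleosomes, so that a peak marks a promoter, an enhancer or another accessible element. Stretches where many such elements lie close together are typical of the genes that define a cell type, and are often found by joining elements across short gaps. When a naive B cell becomes a plasma cell it shuts down Pax5, Bach2 and the antigen-presentation genes, turns on Prdm1 (Blimp-1), Irf4 and Xbp1, and enlarges its endoplasmic reticulum through the unfolded protein response to secrete antibody.

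The plasma list held wider peaks than the naive B list. The median width was 1845 bp (1835 to 1857) in the plasma list against 1631 bp (1621 to 1640) in the naive B list, with quartiles of 1417 and 2502 bp against 1296 and 2190 bp. Peaks of at least 2000 bp made up 42.9% of the plasma list (42.4 to 43.5%) and 31.6% of the naive B list (31.1 to 32.2%). Of the widest peaks, 1667 plasma peaks (5.67%) and 990 naive B peaks (3.46%) reached 4000 bp, and 21 plasma and 3 naive B peaks reached 8000 bp. The plasma median was the higher one on 19 of 19 chromosomes, where medians ranged from 1784 to 1898 bp in plasma cells and from 1565.5 to 1708 bp in naive B cells, so the ranges did not overlap. Together the peaks covered 62.2 Mb in the plasma list and 53.9 Mb in the naive B list, or 2.51% and 2.18% of the 19 chromosomes.

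The greater width was also present at sites that both lists hold. A plasma peak and a naive B peak overlapped each other and nothing else in 19363 cases, which is 67.7% of the naive B list and 65.8% of the plasma list. At these sites the median width was 2095 bp in plasma cells and 1810 bp in naive B cells. The ratio of plasma to naive B width had a median of 1.12 (1.12 to 1.13) and quartiles of 0.980 and 1.31, and the plasma peak was the wider one in 13880 pairs (71.7%). The centres of paired peaks lay a median of 96.5 bp apart. A single plasma peak spanned at least 2 naive B peaks in 201 cases, and a naive B peak spanned at least 2 plasma peaks in 39.

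Each peak carries a score from the authors' peak caller, which is used here to rank peaks within a list. The exception is the setting with scores of at least 100, where 1 limit was applied to both lists. Since the depth is not known, a given score need not mean the same in both lists. The 2 highest scores in both lists were 3100, treated here as a cap, so the tie does not rank these peaks. They belonged to the same sites, at chr1:24618191-24623584 and chr2:22442613-22446356 in the naive B list. What gives such high scores was not tested. Below these, the naive B list was led by chr6:103598868-103599481 with a score of 2557.76 and a width of 614 bp. The plasma list was led by chr9:35112322-35113871, with a score of 2363.73, which overlapped the naive B peak of rank 4. Width and score rose together across the peaks of a list (Spearman's rho 0.703 in naive B and 0.702 in plasma cells, a description across peaks of 1 library). The median width went from 2414 bp in the highest scoring decile to 1102.5 bp in the lowest in naive B cells, and from 2637 to 1157 bp in plasma cells. The widest peaks of all broke that relation. The 5 widest naive B peaks had scores from 50.09 to 115.07 and the 5 widest plasma peaks from 51.65 to 101.36, all below their list's median score of 214 in naive B and 251 in plasma cells. The widest plasma peak, chr8:87497602-87506438, spanned 8837 bp and met no naive B peak. By contrast the plasma peak at chr10:17440259-17448858, 8600 bp wide with a score of 101.36, lay over a naive B peak of 4812 bp with a score of 1174.44.

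Whether a peak of one list had a partner in the other depended on its rank. In the highest scoring decile 98.0% of naive B peaks (97.4 to 98.5%) and 98.8% of plasma peaks (98.4 to 99.2%) overlapped a peak of the other list by at least 1 base. In the lowest decile the shares were 32.8% (31.1 to 34.6%) and 32.7% (31.0 to 34.4%). The ranking itself was less alike than the positions. Of the 100 highest scoring naive B peaks, 45 overlapped 1 of the 100 highest scoring plasma peaks, although all 100 overlapped some plasma peak. Of the top 1000 the share was 58.2%, and of the top 5000 it was 74.0%.

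**Figure D1:**
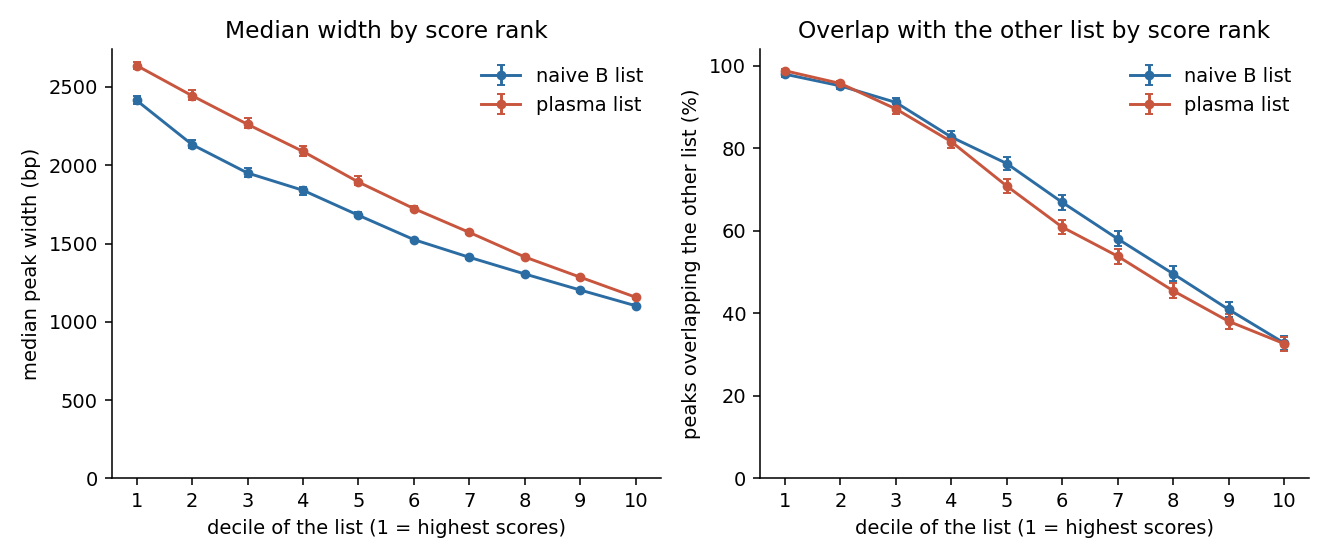
Left, median peak width in bp, and right, percent of peaks that overlap a peak of the other list, each by decile of the list from the highest scores (1) to the lowest (10). Points are the naive B list (blue) and the plasma list (red) with 95% intervals for counting error; plasma peaks are wider in every decile, while overlap falls from 98.0% and 98.8% to 32.8% and 32.7%.

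A few strong peaks had no partner. In the highest scoring decile, 57 naive B peaks overlapped no plasma peak, and the nearest plasma peak lay a median of 16.5 kb away. Of these 57, 3 lay at loci of the gene panel described further on, and the RNA of all 3 genes was higher in the plasma library, by a rule given there that 16.0% of the genes compared met. They were chr13:75843468-75848587 at Ell2, an elongation factor that favours the secreted form of immunoglobulin, chr2:34626550-34628653 at Hspa5, the endoplasmic reticulum chaperone BiP, and chr8:96909554-96912031 at Herpud1, a component of endoplasmic reticulum-associated degradation. Their scores were 797.05, 953.28 and 835.66. Within the panel the RNA rule was met by 17 of the 50 genes compared. It was met by all 9 unfolded protein response genes of the panel, which include Hspa5 and Herpud1. A missing partner is a missing peak call: whether the sites were accessible in plasma cells but not called, for example in broad regions, was not tested. Conversely, 34 plasma peaks of the highest decile overlapped no naive B peak, and none of the 34 lay at a panel locus.

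Plasma peaks were more closely spaced, and at the same time the plasma list had longer empty stretches. The median gap from the end of a peak to the start of the next was 19023.5 bp (18682 to 19393) in the plasma list and 21849 bp (21395 to 22273) in the naive B list. Gaps under 12500 bp made up 37.4% of all gaps in plasma cells (36.9 to 38.01%) and 34.5% in naive B cells (33.9 to 35.0%), and gaps under 100 kb 87.5% and 83.9%. The mean gaps, 79847 and 82414.5 bp, lay closer together than the medians. On each of the 19 chromosomes the plasma list had the shorter median gap and the larger share of gaps under 12500 bp. At the far end of the distribution the order turned. Gaps of at least 0.5 Mb numbered 961 in the plasma list and 1011 in the naive B list, but those of at least 1 Mb numbered 444 and 340, those of at least 2 Mb 132 and 59, and those of at least 3 Mb 43 and 8.

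**Figure D2:**
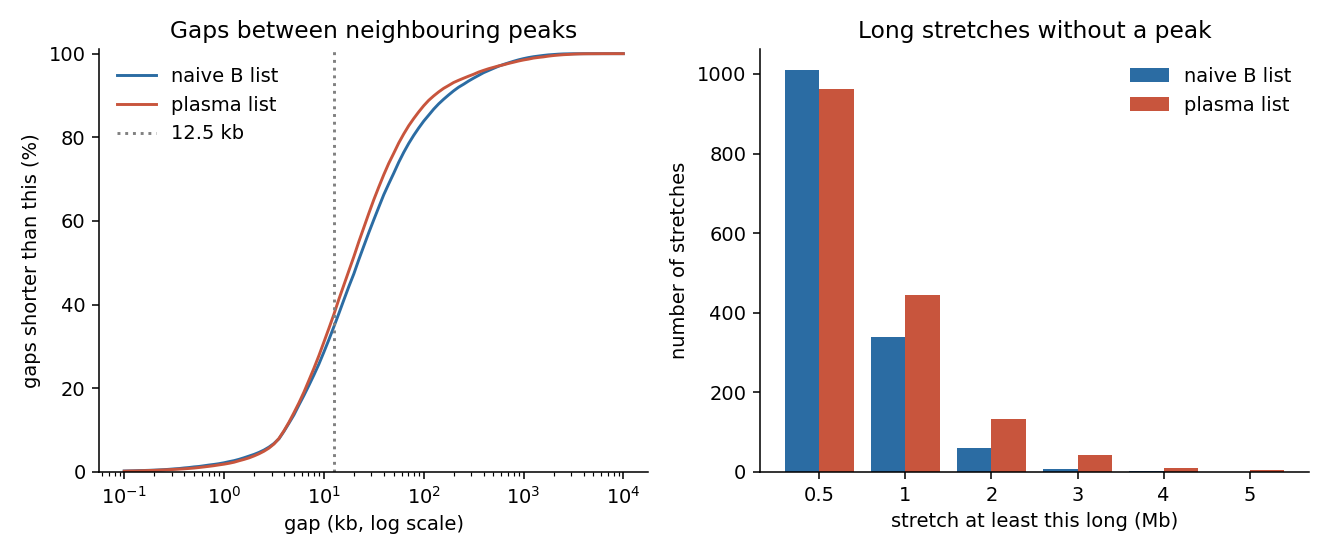
Left, percent of gaps between neighbouring peaks that are shorter than the length on the x axis (kb, log scale), with 12500 bp marked by the dotted line; right, number of stretches without a peak of at least the length on the x axis (Mb). The plasma list (red) lies above the naive B list (blue) at 12500 bp, 37.4% against 34.5%, and also has more stretches from 1 Mb upward, 444 against 340.

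Stretches of at least 1 Mb without a peak added up to 817 Mb in the plasma list and 530 Mb in the naive B list. The longest was nearly the same in both lists, chr7:39057306-46356286 in naive B cells (7.30 Mb) and chr7:39057477-46704018 in plasma cells (7.65 Mb). The next longest differed. The plasma list was empty over chr8:98440913-104665488 (6.22 Mb), where the naive B list had 6 peaks, over chr6:59160457-64991661 (5.83 Mb), with 17 naive B peaks, and over chr12:60321976-65997842 (5.68 Mb), with 8. After the shared stretch on chromosome 7 the longest in the naive B list was 4.02 Mb, at chr15:13073894-17097897. In all, 1564 naive B peaks (5.47% of that list) lay in plasma stretches and 486 plasma peaks (1.65%) in naive B stretches. The naive B peaks in plasma stretches were weak ones, with a median score of 86.5 against 214 for the whole list. The contrast in total length shrank when weak peaks were left out: with scores of at least 100 only, the stretches added up to 966 Mb in plasma and 888 Mb in naive B cells, and with the 20000 highest scoring peaks of each list to 1012 and 921 Mb.

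Joining peaks across gaps under 12500 bp gave more and larger clusters in plasma cells. Clusters of at least 5 peaks numbered 557 in the plasma list, with 3417 peaks (11.6%, 11.3 to 11.99%), and 428 in the naive B list, with 2560 peaks (8.95%, 8.62 to 9.28%). Clusters of at least 8 peaks numbered 79 and 47, and those of at least 10 numbered 22 and 13. Lone peaks made up 41.8% of the plasma list and 45.2% of the naive B list. A cluster of at least 5 peaks spanned a median of 43.1 kb in plasma cells and 40.1 kb in naive B cells, of which peaks covered 30.3% and 28.6% of the summed length. With lists cut to equal length, the 20000 highest scoring peaks, the counts were 141 and 116.

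The strongest peaks were the least clustered. In the highest scoring decile 57.7% of naive B peaks and 55.2% of plasma peaks stood alone, and 4.47% and 5.71% lay in clusters of at least 5. In decile 7 the shares in such clusters were 11.2% and 14.5%. The median score was 239 for lone naive B peaks and 186 for those in clusters of at least 5, and 287 and 219 in plasma cells. Clustered peaks were nevertheless wider, with medians of 1715.5 bp against 1607 bp for lone peaks in naive B cells and 1954 against 1799 bp in plasma cells. Overlap with the other list went opposite ways: it was higher for clustered than for lone peaks in naive B cells (71.6% against 68.7%) and lower in plasma cells (65.3% against 68.1%).

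**Figure D3:**
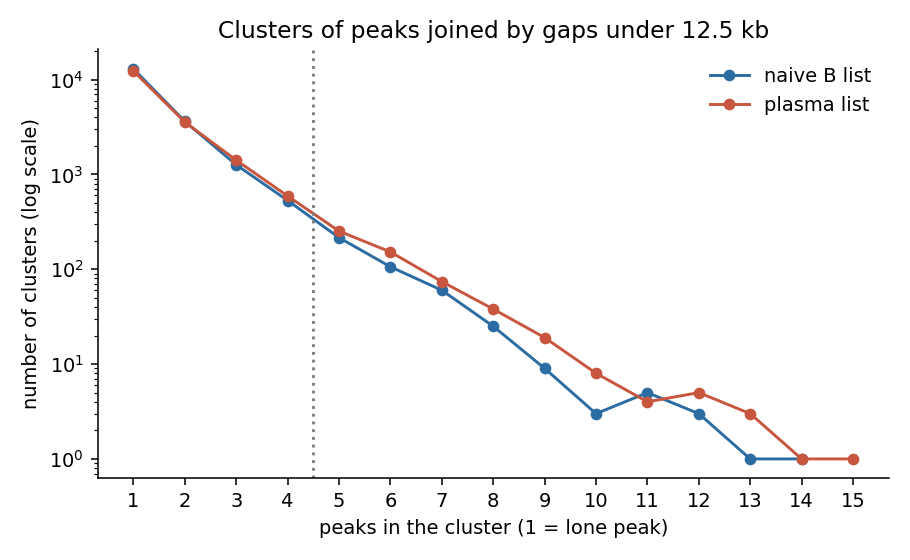
Number of clusters (y axis, log scale) by the number of peaks in the cluster (x axis; 1 is a lone peak) after joining peaks across gaps under 12500 bp, for the naive B list (blue) and the plasma list (red). The plasma list has fewer lone peaks, 12290 against 12922, and more clusters of at least 5 peaks (right of the dotted line), 557 against 428.

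The largest clusters were shared. In both lists the cluster with the most peaks lay near the start of chromosome 19, at chr19:4113097-4215044 with 14 naive B peaks and at chr19:4095780-4215937 with 15 plasma peaks, and the next at chr4:88402377-88452483 with 13 and at chr4:88388014-88452476 with 14. The cluster with the longest covered length in the naive B list, chr13:23608344-23678786, held 11 peaks over 29.8 kb, and the plasma list had 10 peaks over 32.6 kb there. From general knowledge, and named after its values were seen, that stretch lies in the main replication-dependent histone gene cluster. Some other named clusters had counts as close, such as chr11:68853049-68948168 with 11 naive B and 12 plasma peaks, and in others they lay further apart. The plasma list had 13 peaks at chr5:101007318-101110416 and 13 at chr4:151460137-151560001, where the naive B list had 9 each, in 3 and 2 groups. The naive B list had 12 peaks at chr11:118041214-118122110, where the plasma list had 6.

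Of the panel loci, Cd74 was the only one to lie in one of the 8 plasma clusters with the most peaks. Cd74 encodes the invariant chain that guides MHC class II molecules to antigen. The plasma cluster at chr18:60867844-60969167 held 12 peaks over 30.8 kb, while the naive B list had 7 peaks over 12.4 kb in 4 separate groups. The Cd74 locus with 20 kb on each side started at chr18:60943001 and held 4 plasma peaks, so most of the 12 lay outside it. The cluster around Irf8, a transcription factor of B cells and myeloid cells, was among the 5 plasma clusters that exceeded the naive B count by most: chr8:123206868-123303992 held 12 plasma and 6 naive B peaks. The RNA of both genes was not higher in the plasma library in TPM, the length-normalized transcript abundance. Cd74 had 15217 TPM in naive B and 4370 in plasma cells, and Irf8 263 and 133. By the RNA rule given further on, which takes out the median log2 ratio, neither gene was called higher or lower. Their log2 ratios by that rule were -0.81 for Cd74 and 0.0056 for Irf8.

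Over all clusters of at least 5 peaks, 202 of the 428 naive B clusters (47.2%, 42.4 to 52.0%) overlapped a plasma cluster of that size, and 202 of the 557 plasma clusters (36.3%, 32.3 to 40.4%) overlapped a naive B one. Few had no peak at all in the other list, 4 naive B and 10 plasma clusters. More often a cluster of one list was broken up in the other, since 143 naive B clusters (33.4%) and 257 plasma clusters (46.1%) spanned at least 2 separate groups of the other list. The naive B cluster that exceeded the plasma count by most, chr13:37403905-37449331, had 8 peaks against 1. At chr1:175897078-175948093 the naive B list had a cluster of 6 peaks and the plasma list had none.

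Peak density per chromosome kept nearly the same order in both lists (Spearman's rho 0.898 over 19 chromosomes, a description). Chromosome 11 was densest, with 15.4 peaks per Mb in naive B and 15.6 in plasma cells, and chromosome 14 sparsest, with 8.16 and 9.10. The plasma list was denser on 13 chromosomes and the naive B list on chromosomes 1, 6, 7, 10, 13 and 19. The ratio of plasma to naive B density was highest on chromosome 9, at 1.15 (1.07 to 1.24), chromosome 4, at 1.14 (1.07 to 1.22), chromosome 8, at 1.12 (1.04 to 1.21), and chromosome 14, at 1.12 (1.02 to 1.22). It was lowest on chromosome 10, at 0.938 (0.878 to 1.002), and chromosome 13, at 0.944 (0.876 to 1.02), both with intervals that include 1. All these intervals hold counting error only and do not test whether a chromosome differs between the cell types. The plasma list as a whole had 1.03 times as many peaks as the naive B list. Chromosome 10 had fewer plasma than naive B peaks, 1756 against 1872, and yet more plasma clusters of at least 5, 45 against 31. The number of chromosomes depended on which peaks were kept: the plasma list was denser on 8 with the 20000 highest scoring peaks of each list, and on 17 with scores of at least 100 only.

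Both lists were densest towards the end of the chromosomes far from the centromere, which in mouse chromosomes lies at the start of the numbering. Neither list had a peak in the first 3 Mb of any chromosome. Whether a read could be placed there was not examined, so this is not a result about accessibility. The quintiles below divide the length after these 3 Mb. The last quintile held 14.5 peaks per Mb in naive B and 16.1 in plasma cells. In the first and second quintiles the plasma list was the less dense one, with 10.6 and 10.2 against 11.1 and 10.6 peaks per Mb, and in the other quintiles it was the denser one.

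**Figure D4:**
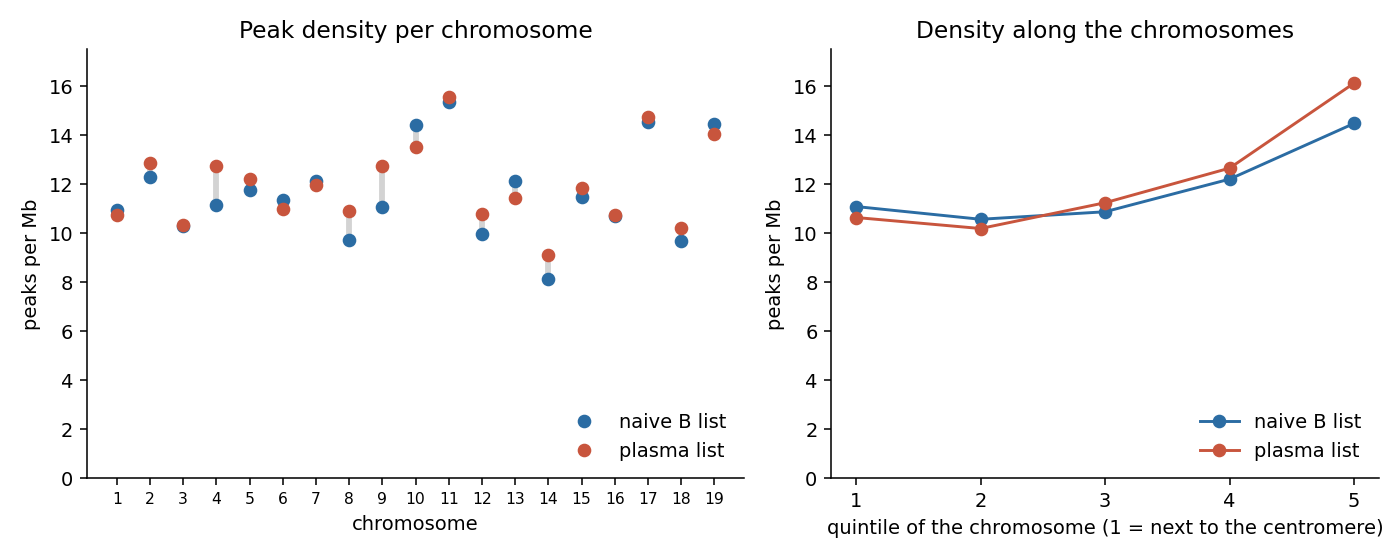
Left, peaks per Mb on chromosomes 1 to 19, with a grey bar joining the naive B list (blue) and the plasma list (red); right, peaks per Mb in quintiles of all 19 chromosomes, without their first 3 Mb, from the centromere end (1) to the far end (5). Density ranges from 8.16 and 9.10 on chromosome 14 to 15.4 and 15.6 on chromosome 11, and the plasma list is the less dense one in the first and second quintiles only.

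In windows of 1 Mb the lists had similar counts (Spearman's rho 0.921 over 2482 windows, a description), but the plasma peaks were more concentrated. The richest 10% of windows held 30.7% of plasma peaks and 28.4% of naive B peaks, and 237 against 169 windows held at least 30 peaks. At the other end 434 windows had no plasma peak and 251 no naive B peak. Of these, 205 were empty in both lists, 229 in the plasma list alone, with 473 naive B peaks, and 46 in the naive B list alone, with 85 plasma peaks. The 205 include the windows of the first 3 Mb of every chromosome, which also enter the rank correlation. Whether a read could be placed in those was not examined. Windows with fewer plasma peaks (1097) outnumbered those with more (945), although the plasma list was the longer one. Where the naive B list had 1 to 4 peaks in a window, the plasma list had 0.765 times as many in all, and where it had 10 to 19 peaks, 1.05 times as many. The richest window in both lists, chr10:80000001-81000000, held 60 naive B and 72 plasma peaks.

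A window was called a gain or a loss where at least 1 list had 10 peaks and the counts, with 1 peak added to each, differed by at least 1.5 times. Among the 1319 windows with enough peaks, 177 (13.4%) were gains and 159 (12.1%) losses. Which of the 2 was the more frequent depended on the setting. Losses were more frequent at a ratio of at least 2 (27 gains and 64 losses), with the 20000 highest scoring peaks of each list (95 and 115), in windows of 2 Mb (81 and 116) and with plasma counts scaled to the number of naive B peaks (139 and 163), while gains were more frequent with scores of at least 100 only (160 and 87). Gains outnumbered losses by most on chromosome 4, with 18 gains and 5 losses, and chromosome 9, with 17 and 4, and losses outnumbered gains by most on chromosome 10, with 4 gains and 13 losses. The largest gains were at chr17:84000001-85000000, from 28 naive B to 50 plasma peaks, chr4:59000001-60000000, from 26 to 48, chr4:134000001-135000000, from 30 to 49, chr5:118000001-119000000, from 14 to 33, and chr8:125000001-126000000, from 26 to 44. In the chromosome 5 window each naive B peak overlapped a plasma peak, and 20 of the 33 plasma peaks were in that list alone. The highest ratio was at chr4:81000001-82000000, where 1 naive B peak with a score of 134.98 stood against 16 plasma peaks with scores up to 813.31.

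**Figure D5:**
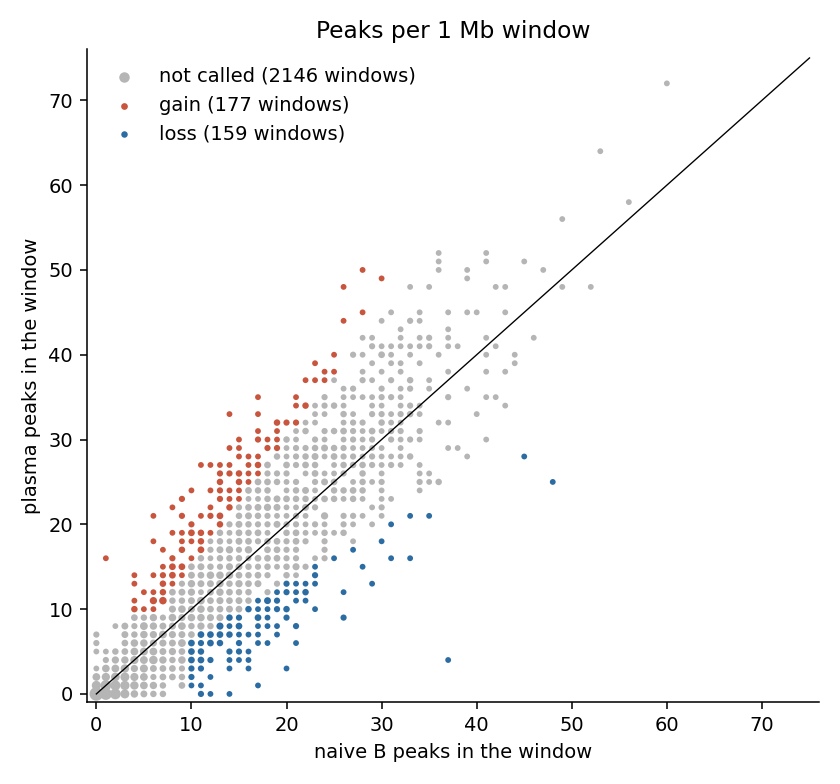
Peaks per 1 Mb window in the naive B list (x axis) and the plasma list (y axis), each point a pair of counts, larger where more windows share it; the line marks equal counts. Gains (red, 177 windows) and losses (blue, 159 windows) have at least 10 peaks in 1 list and a ratio of at least 1.5, and the lowest points on the right are windows such as chr6:69000001-70000000 with 37 naive B and 4 plasma peaks.

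The largest loss was inside the kappa light chain locus, Igk, whose variable genes spread over several Mb of chromosome 6. The window chr6:69000001-70000000 had 37 naive B peaks, 34 of them in that list alone, and 4 plasma peaks, and the covered length was 48.1 and 5.55 kb. Next came chr6:129000001-130000000, with 48 naive B and 25 plasma peaks, chr1:175000001-176000000, with 45 and 28, chr13:12000001-13000000, with 33 and 16, and chr11:114000001-115000000, with 26 and 9. From general knowledge, and named after the values were seen, the second window on chromosome 6 holds genes of the C-type lectin family with Cd69 and Clec2d. The chromosome 1 window holds genes of the interferon-inducible Ifi200 family, which sense DNA. RNA did not go one way in the lectin window: Cd69 had 69.1 TPM in naive B and 195 in plasma cells, and Clec2d 353 and 77.7. In the Ifi200 window Mndal had 516 and 37.1 TPM, Ifi203 293 and 12.3, and Aim2 115 and 7.91. Some windows lost every peak: chr13:10000001-11000000 had 14 naive B and 0 plasma peaks, and chr17:40000001-41000000 had 12 and 0.

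The gene panel held 57 loci in 7 lists, taken with 20 kb on each side at approximate mm9 positions from general knowledge, since no mm9 annotation was used. It had 333 naive B and 276 plasma peaks, and 20 loci had more plasma peaks, 22 fewer and 15 the same number. Among 18435 windows of 50 kb with a peak in either list, 32.4% had more plasma peaks and 30.8% fewer, the reverse order of the panel. These windows are a rough reference, since many panel windows have other lengths. Without the 3 immunoglobulin loci the totals were equal, 222 and 222, and the covered length was 496 kb in naive B and 559 kb in plasma cells. RNA is given as TPM in 1 library per cell type, and called higher or lower at a log2 ratio of at least 1 either way after the median log2 ratio of -0.99 was taken out. By that rule 16.0% of 10191 genes were higher and 22.0% lower in plasma cells.

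At the unfolded protein response loci the lists differed more in width than in number. The 9 loci had 27 naive B and 34 plasma peaks, with more plasma peaks at 3, fewer at 2 and as many at 4. Their covered length was 51.6 kb in naive B and 92.0 kb in plasma cells, greater in the plasma list at 8 of the 9, against 60.1% of the 50 kb windows. The widest peak of the locus was wider in the plasma list at 9 of 9, against 62.6% of those windows. A peak of at least 4000 bp was present at 1 of the 9 in naive B cells and at 6 in plasma cells. The shares of the 50 kb windows were 5.08% and 8.33%, a rough measure, since the panel windows are not all 50 kb long. Such peaks were frequent across the panel, at 17 of its 57 loci in naive B and 26 in plasma cells. They were present at 6 and 5 of the 12 naive B cell regulators. Among the 11 plasma cell regulators and products they were present at 5 and 7. RNA was higher in plasma cells for all 9 genes.

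At Xbp1, the transcription factor that drives expansion of the secretory apparatus, 3 naive B peaks covered 6.03 kb and 6 plasma peaks 17.9 kb. All 3 naive B peaks had a plasma partner, and the plasma list added chr11:5399072-5402296, chr11:5408564-5410260 and chr11:5423300-5428183, the last of which was 4884 bp wide. Xbp1 RNA was 109 TPM in naive B and 939 TPM in plasma cells. Ern1, which encodes the sensor IRE1 that splices Xbp1 mRNA, had 3 naive B peaks and 7 plasma peaks. Again the 3 naive B peaks were kept, and the 4 additional plasma peaks were between 1283 and 1725 bp wide. At Derl3, a factor of endoplasmic reticulum-associated degradation, the 1854 bp naive B peak, with a score of 996.82 and rank 1042, corresponded to a 6177 bp plasma peak with a score of 272.23 and rank 13967. Creld2, an endoplasmic reticulum stress gene, showed the same form: the 2089 bp naive B peak, at rank 1025, corresponded to a 5925 bp plasma peak at rank 10979. Ddit3, which encodes the stress factor CHOP, had a peak of 5021 bp at rank 5782 in naive B and of 7071 bp at rank 17279 in plasma cells. At these 3 loci the plasma peak was wider and stood lower in its list. The form was not particular to this list, since Gapdh and Foxo1, described below, also had it. What part the peak caller's treatment of broad regions has in such widths and ranks was not tested. Hspa5 was the locus with less covered length in plasma cells, 3.91 against 5.22 kb, and it is where the naive B peak at rank 1279 had no plasma partner; its RNA was 314 TPM in naive B and 1483 TPM in plasma cells.

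Among the 11 loci of plasma cell regulators and products the lists had 43 naive B and 42 plasma peaks, with more plasma peaks at 5 loci, fewer at 5 and as many at 1. RNA was higher in plasma cells for 7 of the 10 measured genes and lower for 2. Il10, an anti-inflammatory cytokine that some plasma cells secrete, had 1 naive B peak of 1356 bp at rank 24219. The plasma list had 5 peaks there, and the one over the naive B peak was 4138 bp wide at rank 5464; Il10 RNA was 0.151 TPM in naive B and 103 TPM in plasma cells. Jchain, which links IgM and IgA polymers, had a widest peak of 1519 bp in naive B and 4463 bp in plasma cells. Mzb1, a chaperone of antibody assembly, had 3 peaks in each list over 6.08 and 11.8 kb. Sdc1, the plasma cell surface proteoglycan CD138, and Tnfrsf17, the survival receptor BCMA, each had 1 naive B and 3 plasma peaks, yet their RNA was low in both libraries, at 11.1 and 5.38 TPM for Sdc1 and 2.24 and 1.68 TPM for Tnfrsf17.

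The regulators Irf4 and Prdm1 both had fewer peaks in the plasma list. Irf4, needed for the plasma cell program, had 6 naive B peaks over 19.6 kb and 1 plasma peak over 1.61 kb, and none of the 7 overlapped. The plasma peak, chr13:30821426-30823039, had a score of 122.41 and belonged to a cluster of 7 plasma peaks, the other 6 of which lay outside the 20 kb flank. Prdm1, which encodes Blimp-1, had 5 naive B peaks and 3 plasma peaks, the latter all with a naive B partner. RNA was higher in plasma cells for both, at 96.6 and 221 TPM for Irf4 and 2.29 and 249 TPM for Prdm1. Ell2 had 4 naive B and 3 plasma peaks over 12.7 and 6.99 kb, with 19.6 and 127 TPM.

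The 12 naive B cell regulators had 89 naive B and 92 plasma peaks over 186 and 223 kb. There were more plasma peaks at 6 loci, fewer at 3 and as many at 3, beside 32.4% and 30.8% of the 50 kb windows with more and fewer. Covered length was greater in the plasma list at 8 of the 12, beside 60.1% of those windows. RNA was lower in plasma cells for 9 of the 12 genes and higher for none. Pax5, the factor that maintains B cell identity, had 7 naive B and 4 plasma peaks over 13.7 and 8.50 kb, with 346 and 15.7 TPM. Ciita, the activator of MHC class II genes, also had 7 and 4, with 220 and 11.5 TPM. Other members had no fewer plasma than naive B peaks, although their RNA was lower in plasma cells. Bach2, a repressor of Prdm1, had 19 and 20 peaks over 32.7 and 42.2 kb, with 76.7 and 3.88 TPM. Ebf1, an early B cell factor, had 16 and 20 peaks over 30.0 and 46.6 kb, with 102 and 20.0 TPM. At Foxo1 the naive B peak of 4835 bp at rank 11012 overlapped a plasma peak of 7489 bp at rank 18353. Klf2, a factor of resting lymphocytes, had 0 naive B and 2 plasma peaks, one of them the 8100 bp peak at chr8:74841874-74849973, while its RNA was 163 TPM in naive B and 10.1 TPM in plasma cells. Ets1 had 10 peaks in each list, of which 5 in each had no partner.

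The 12 B cell surface and signalling loci had 42 naive B and 41 plasma peaks, and here the covered length was lower in plasma cells, 98.6 against 110 kb, and the widest peak was wider in the plasma list at 3 of the 12. RNA was lower in plasma cells for 10 of the 12 genes. Fcer2a, which encodes the CD23 used in the naive B sort, had 5 naive B and 3 plasma peaks over 12.6 and 6.27 kb, with 1062 and 6.78 TPM. Cr2, a complement receptor, had 3 and 2 peaks over 10.5 and 7.18 kb, and Ccr7, a homing receptor, 6 and 4 over 13.2 and 6.83 kb. H2-Aa, an MHC class II gene, had 2 naive B and 5 plasma peaks, and none of the 7 overlapped. At Cd74 the plasma list alone had the 6917 bp peak chr18:60962251-60969167.

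At the immunoglobulin loci, where large gene arrays are recombined in each B cell, the lists had 111 naive B and 54 plasma peaks. Igk had 76 and 31 peaks over 106 and 55.6 kb, and 54 of the 76 naive B peaks had no plasma partner. The heavy chain locus Igh had 24 and 14 peaks but a covered length of 34.9 and 38.8 kb, and its widest peak was 2791 bp in naive B and 5590 bp in plasma cells. Igl, the lambda light chain locus, had 11 and 9 peaks over 15.5 and 18.7 kb. So the widest peak was wider in the plasma list at all 3 loci, while the counts were lower.

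Markers of other cells were checked at 6 loci, which had 12 naive B and 3 plasma peaks. Of the naive B peaks, 8 lay at the beta-globin gene Hbb-b1, an erythroid locus, where the plasma list had none. They had scores from 51.54 to 354.81, and Hbb-b1 RNA was 21.1 TPM in naive B cells and listed at 0 in plasma cells. The plasma cells were sorted without Ter119, an erythroid marker, and the label of the naive B sort names no such exclusion. Cd3e, Thy1 and Cebpa had 1 peak in each list, Csf1r had 1 in the naive B list, and Lyz2 had none in either. RNA of the myeloid genes Lyz2 and Csf1r was 55.2 and 42.5 TPM in naive B and 0.240 and 0.0140 TPM in plasma cells, and that of the T cell genes Cd3e and Thy1 was 2.65 and 4.15 TPM and listed at 0. What part RNA or chromatin of such cells has in the differences above was not tested. The housekeeping genes had 9 and 10 peaks at 4 loci. Gapdh had 2 in each list, with 698 and 3037 TPM. Its widest peak was 2368 bp at rank 4978 in naive B and 6701 bp at rank 17120 in plasma cells. Actb had 4 naive B and 2 plasma peaks over 8.27 and 3.13 kb, with 4084 and 1271 TPM. The widest naive B peak at Actb, chr5:143666517-143669968 (3452 bp), had no plasma partner. Ppia had 1 naive B and 3 plasma peaks, and Polr2a 2 and 3.

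TCC lists significant pairs of 1 Mb bins, and the number listed per bin was set beside the peaks in the bin. With all listed pairs, bins without a peak had a median of 29 pairs in naive B and 27 in plasma cells, more than bins with 5 to 9 peaks (12 and 16) or 10 to 19 peaks (19 and 16), and bins with at least 30 peaks had 110 and 107. With pairs between chromosomes only, bins without a peak had a median of 7 listed pairs in naive B and 6 in plasma cells, and bins with at least 30 peaks had 105 and 107. Spearman's rho between peaks and listed pairs between chromosomes was 0.466 in naive B and 0.443 in plasma cells over 2482 bins, and with pairs within chromosomes included it was 0.262 and 0.267. These are descriptions, since all bins share 1 library. The bins without a peak include those of the first 3 Mb of every chromosome, here and in the correlations. Windows with a gain had a median of 22 listed pairs in naive B and 27 in plasma cells, those with a loss 13 and 9, and the remaining windows with enough peaks 36 and 41. The number was lower in plasma cells in 98 of the 177 gain windows, 84 of the 159 loss windows and 566 of the 983 others.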

How the data were processed

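Samples were grouped by their titles: 1 ATAC-seq, 1 RNA-seq and 1 TCC library per cell type. The ChIP-seq samples were not analysed here. Per the labels' protocols, ATAC-seq used 50000 cells, transposition for 30 min and fragments of 200 to 800 bp. Per the submitters' processing notes, the series was processed on mm9 with Bowtie, HOMER, TopHat, Picard, MACS 1.4 and kallisto; which tool made which file is not stated there, nor are filters or pooling. The deposited peak lists give 1 score per peak, the authors' own value, used within a list except for the limit of 100 applied to both. The deposited RNA tables hold kallisto TPM per transcript, per the file headers, summed here per gene. The deposited interaction lists hold read pair counts per pair of 1 Mb bins, per the file headers, and only the number of listed pairs was used.

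Gaps were measured from edge to edge, and a gap under 12.5 kb joined peaks into a cluster. Densities used mm9 chromosome lengths. RNA ratios used log2(TPM + 1) for genes with at least 5 TPM in 1 library, less the median over genes with 5 TPM in both; log2 ratios on this scale understate low genes. Intervals are exact binomial (Clopper-Pearson) for shares and chromosome ratios and by order statistics for medians. Python 3.11.15, numpy 2.4.6, pandas 2.3.3, scipy 1.17.1 and matplotlib 3.10.9 were used, and the cluster and overlap code was tested on simulated data.

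Regions were named by rule: in each list the 5 highest scoring and 5 widest peaks, the 8 clusters with the most peaks, the 5 with the longest covered length and the 5 longest empty stretches; the 5 windows with the largest gain and the 5 with the largest loss; all 19 chromosomes; and panel loci with the largest difference or in a named region. Of these, the ones that show a difference are described. Clusters and windows named as most different by another measure, the strong peaks without a partner, and the counts of covered length and widest peak over panel loci were chosen after their values were seen. Members, lists and panel were chosen with earlier results of these data known. Alternatives were score and list length limits, other gaps, cluster sizes, windows, overlaps and flanks. No sequence is printed, since no mm9 genome was used.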

Additional observations from a re-analysis of the deposited data

Results flagged for a closer look

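Peaks outside chromosomes 1 to 19 were left out of every comparison above, and they were not few. Chromosome X held 1086 naive B peaks and 925 plasma peaks, or 6.52 and 5.55 per Mb, against 11.6 and 11.9 per Mb on chromosomes 1 to 19. Their median score was 145 in the naive B list and 216 in the plasma list. Unplaced contigs held 165 naive B and 144 plasma peaks, on 69 and 51 contigs, with median scores of 109 and 126. No control library gives a background for these counts, and the difference between the lists was not tested.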

How the results depend on the processing

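Of 58 comparisons between the lists under 14 alternatives, over 17 measures, 55 kept their direction. Among the exceptions was the number of peaks, equal by construction with the 20000 highest scoring peaks of each list. The others were the overlap of the lowest decile in those shortened lists and the rank correlation of peaks with listed pairs between chromosomes only. The tally held comparisons that could not change. Neither scaled plasma counts nor a window ratio of at least 2 can alter the share of peaks in the richest windows. Nor can they alter the number of windows without a peak. The tally left out gains against losses, whose order reversed under settings given below. It also left out the number of chromosomes denser in plasma cells, 13 in the main setting and 8 with the shortened lists. Of 150 values under alternatives 66 moved by less than their counting interval or within 1.5 times, and the other 84, all printed here, moved mostly because fewer peaks, other gaps or other lengths enter. The cause of other shifts was not tested. No paired analysis was possible because each cell type has 1 peak list, and for the same reason no list could be left out. The depth of the libraries is not known, and what it limits could not be measured.

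In the following, values are given as naive B and then plasma. With scores of at least 100 only, the median width was 1824 and 2061 bp, the median gap 28375.5 and 24693 bp, gaps under 12500 bp 27.1% and 29.8%, clusters 156 and 226, peaks in clusters 4.23% and 5.85%, peaks in the richest 10% of windows 30.2% and 31.9%, overlap of the lowest decile 40.8% and 29.03%, and median density 8.40 and 9.25 peaks per Mb. Empty stretches in naive B cells came to 888 Mb, 512 windows had no naive B peak, and 87 windows were losses. With the 20000 highest scoring peaks of each list the same measures were 1855 and 2149 bp, 29955 and 28481 bp, 25.6% and 26.2%, 116 and 141, 3.26% (naive B) and 3.99% (plasma), 30.5% and 32.7%, 35.6% and 36.8%, and 7.99 and 8.27 peaks per Mb. Empty stretches in naive B cells then came to 921 Mb, 538 windows had no naive B peak, 95 windows were gains and 115 losses, the plasma list was denser on 8 chromosomes, and the panel had 220 naive B peaks.

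Measured from centre to centre, the median gap was 23765.5 and 21180.8 bp, gaps under 12500 bp 30.1% and 31.9%, clusters 282 and 361, peaks in clusters 5.69% and 7.28%, and shared clusters 40.1% and 31.3% of each list. With a joining gap of 5 kb there were 21 and 24 clusters with 0.398% and 0.490% of peaks, of which 23.8% and 20.8% were shared. With 25 kb there were 1306 and 1519 with 32.0% and 38.9% of peaks, of which 65.5% and 55.3% were shared. With at least 3 peaks per cluster there were 2218 and 2558 with 29.6% and 34.0% of peaks, of which 58.8% and 51.2% were shared.

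In windows of 2 Mb the richest 10% held 24.4% and 26.9% of peaks, 38 and 82 windows were empty, and 81 were gains and 116 losses. With plasma counts scaled to the number of naive B peaks there were 139 gains and 163 losses. At a ratio of at least 2 there were 27 gains and 64 losses. With that ratio, the shortened lists, the 2 Mb windows and the scaled counts, losses outnumbered gains, the reverse of the order in the report. With a flank of 50 kb the panel had 421 plasma peaks and the unfolded protein response loci 89.8 and 147 kb covered. Without a flank the panel had 175 plasma peaks, 13 loci had more plasma peaks, and the unfolded protein response loci had 22.1 and 43.6 kb covered. With listed pairs between chromosomes only, the rank correlation was 0.466 and 0.443.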
